A study of Mus musculus with 9 samples.

Results

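Wild-type (WT) mouse macrophages exposed to oxidized low-density lipoprotein (ox-LDL) for 24 h were compared with untreated WT macrophages at 0 h, across all genes. The 6 libraries, chosen by their labels as 3 at 24 h and 3 at 0 h, are part of a series of 9, whose other 3 are MKP5 -/- macrophages at 24 h with ox-LDL. The marrow of C57BL/6 mouse femurs was cultured for 7 days, and 15% of the medium was supernatant from L-929, a fibroblast line whose cells secrete the macrophage growth factor M-CSF. The 24 h groups received ox-LDL at 20 µg/mL, and each library started from 1 µg of total RNA. No WT cells cultured for the same 24 h in the absence of ox-LDL enter the comparison, so in every result below ox-LDL and the additional time in culture cannot be told apart. The labels do not say that replicates came from separate mice, and p-values then measure only the spread between these libraries, which may be technical. In bulk RNA, fewer cells of a type and less RNA per cell cannot be told apart either.

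Macrophages take up ox-LDL through scavenger receptors such as CD36 and break it down in lysosomes, which frees cholesterol. Cholesterol in the membrane of the endoplasmic reticulum (ER) holds back SREBP2, the transcription factor that switches on sterol synthesis, while its oxidized forms activate LXR, which switches on export. Macrophages filled with such lipid, called foam cells, are a hallmark of atherosclerotic plaques.

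Depth was 17443331 to 19875805 reads at 24 h and 15764544 to 17227681 reads at 0 h. On the first principal component of the 6 libraries, which held 80.1% of the variance, the groups stood on opposite sides. By counts, replicate 3 at 24 h lay farthest from the others of its group. The chi-square per gene was 10.2 and 9.57 against replicates 1 and 2, where those differed from each other by 4.01. Correlations of log2 values did not set it apart (0.9880 for replicates 1 and 2, 0.9872 for 1 and 3, 0.9882 for 2 and 3). Of 4906 more abundant genes, 0 in replicate 3 lay over 2-fold from the mean of the others, against 1 in each other replicate. Macrophage markers were abundant in both groups: their summed level was 12649 to 14512 RPKM (reads per kilobase of exon, scaled to library size) at 24 h and 5725 to 6047 RPKM at 0 h. Lyz2 alone, whose levels are given below, held most of the sum at 24 h. Of 14 such markers 11 were higher and 2 lower at 24 h, the lower ones being Fcgr1 and Cd68 (log2 fold changes -1.48 and -0.57). Markers of classical monocytes summed to 6.55 to 8.70 RPKM at 24 h and 95.3 to 103 RPKM at 0 h (0 of 9 higher, 7 lower), and those of neutrophils and their precursors to 23.2 to 24.7 RPKM at 24 h and 127 to 139 RPKM at 0 h (2 of 11 higher, 9 lower). The neutrophil granule genes Camp and Elane had 0 reads at 24 h, against 112 and 126 reads at 0 h, and were at least 42.9-fold and 48.3-fold lower by a floor of 3 reads per group. Markers of T cells summed to 0.813 to 1.27 RPKM at 24 h and 0.919 to 1.21 RPKM at 0 h (0 of 2 tested higher, 1 lower). Those of natural killer cells summed to at most 0.1 RPKM at 24 h and 0.173 RPKM at 0 h. Cd3e and Ncr1 were at or near 0 reads in both groups. B cell markers summed to 40.6 to 57.9 RPKM at 24 h and 31.6 to 34.9 RPKM at 0 h. Of 2 tested, 1 was higher (Ighm, log2 fold change 0.60) and 1 lower.

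Of 14777 tested genes, 55.4% differed at an adjusted p under 0.05: 4051 were higher at 24 h (27.4%) and 4141 lower (28%). At least 2-fold changes made up 9.06% higher and 7.95% lower, and at least 8-fold changes 1.14% and 1.13%. Groups did not overlap for 64.1% of the genes. Every gene said below to rise or fall passed this test, limma's with Benjamini-Hochberg adjustment, and adjusted p-values are printed for a few genes per group. These shares are the background for every count below, and the median log2 fold change over all tested genes was 0.01, with 5% of genes under -1.35 and 5% over 1.51. Sorted by mean level, the lowest quintile of genes had 662 higher and 284 lower calls (32% called), and the highest quintile had 1002 higher and 1213 lower calls (74.9% called). For a list of abundant genes the background is thus above 55.4%. A list with a similar share of calls changed no more often than genes at large. Long intergenic noncoding RNAs leaned the same way as weakly expressed genes, with 81 of 228 higher and 36 lower (median log2 fold change 0.44), and antisense RNAs had 79 of 242 higher and 31 lower (0.39). Use of strand in counting is not given in the sources used here, so antisense RNAs and the genes they overlap are uncertain.

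**Figure D1:**
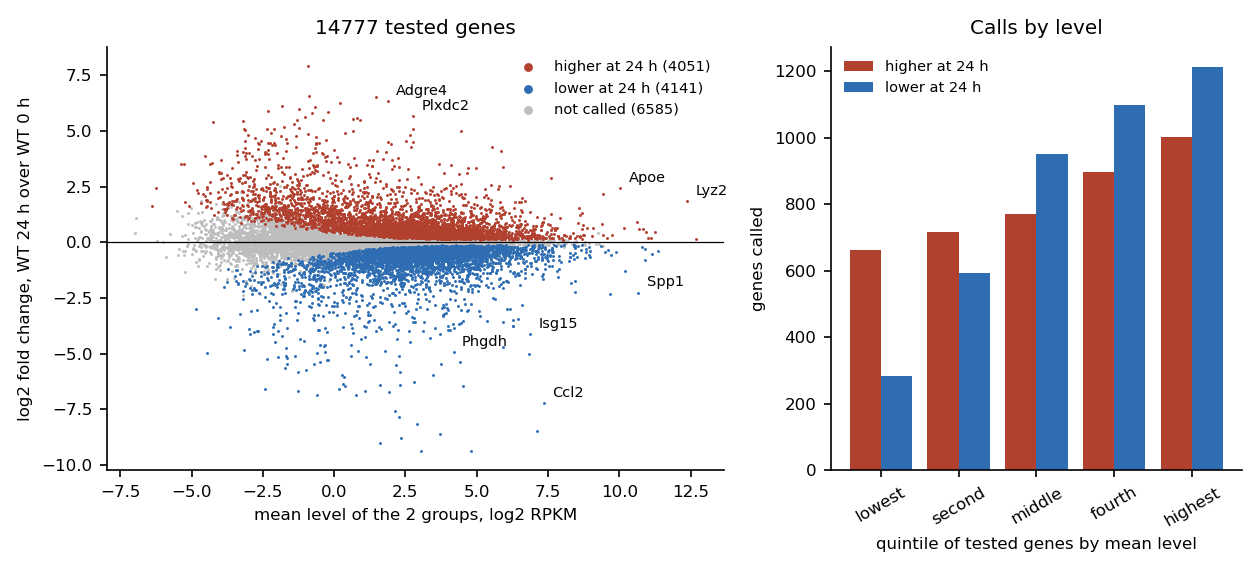
Left, log2 fold change (WT 24 h over WT 0 h) of 14777 tested genes against their mean level in log2 RPKM, with genes called higher in red (4051), called lower in blue (4141) and not called in grey. Right, the number of genes called in each direction in each quintile of genes by mean level; higher calls outnumber lower ones in the lowest quintile (662 and 284), and lower calls outnumber higher ones in the highest quintile (1213 and 1002).

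The transcript shares that shifted most belonged to abundant genes. The 10 genes that gained most were lysozyme (Lyz2), Apoe, Tmsb4x, Selenop, Ftl1, C1qb, Itm2b, Csf1r, Adgre1 and Serinc3, and they held 9.49%, 9.34% and 10.3% of the length-scaled transcript total in the 24 h libraries, against 4.90%, 4.95% and 4.88% in the 0 h libraries. The 10 that lost most were Spp1, Ifitm3, B2m, Lgals3, Fth1, Psap, Bst2, Sqstm1, Actb and Hspa5, with 3.76%, 3.58% and 3.76% of the total at 24 h, against 7.05%, 6.89% and 7.02% at 0 h. Lyz2, an enzyme that cuts bacterial cell walls, had 7886, 7729 and 9216 RPKM at 24 h, against 2271, 2312 and 2312 RPKM at 0 h. Selenop, a secreted selenium carrier, had 1022, 918 and 1442 RPKM at 24 h, against 231, 268 and 236 RPKM at 0 h, so that replicate 3 at 24 h was the highest and the groups did not overlap (log2 fold change 2.18 with an SE of 0.154, adjusted p = 6.92e-07). Spp1, the matrix phosphoprotein osteopontin, had 574, 533 and 565 RPKM at 24 h, against 2870, 2389 and 2796 RPKM at 0 h (log2 fold change -2.26 with an SE of 0.0985, adjusted p = 2.33e-08). Csf1r encodes the receptor of M-CSF, the factor the cells were grown in. It had 540, 525 and 629 RPKM at 24 h, against 196, 189 and 198 RPKM at 0 h, and the 24 h libraries were all above the 0 h libraries (log2 fold change 1.53).

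Among the strongest rises outside the matrix genes were receptors, a docking protein and a repressor of transcription. Plxdc2, a single-pass membrane receptor, had 13.9, 11.7 and 15 RPKM at 24 h, against 0.258, 0.237 and 0.288 RPKM at 0 h (log2 fold change 5.67 with an SE of 0.111, adjusted p = 8.52e-11). Gpr34, a receptor for lysophosphatidylserine, had 8.92, 10.1 and 14 RPKM at 24 h, against 0.52, 0.566 and 0.31 RPKM at 0 h, with replicate 3 the highest of the 24 h libraries (log2 fold change 4.55 with an SE of 0.245, adjusted p = 9.7e-08). The docking protein Gab1 had 11.1, 11.1 and 15 RPKM at 24 h, against 0.663, 0.557 and 0.649 RPKM at 0 h. The transcription repressor Prdm1 had 7.97, 6.7 and 8.19 RPKM at 24 h, against 0.555, 0.664 and 0.552 RPKM at 0 h; both passed the test (log2 fold changes 4.29 and 3.68). Strong falls included Treml2, a receptor of the TREM family, with 0.119, 0.205 and 0.198 RPKM at 24 h, against 13.2, 13.7 and 13.8 RPKM at 0 h, and Padi4, which turns arginine into citrulline in granulocytes, with 0.0101, 0.0475 and 0.11 RPKM at 24 h, against 8.37, 8.1 and 9.51 RPKM at 0 h (log2 fold changes -6.28 and -7.59). For each of these genes the groups did not overlap.

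**Figure D2:**
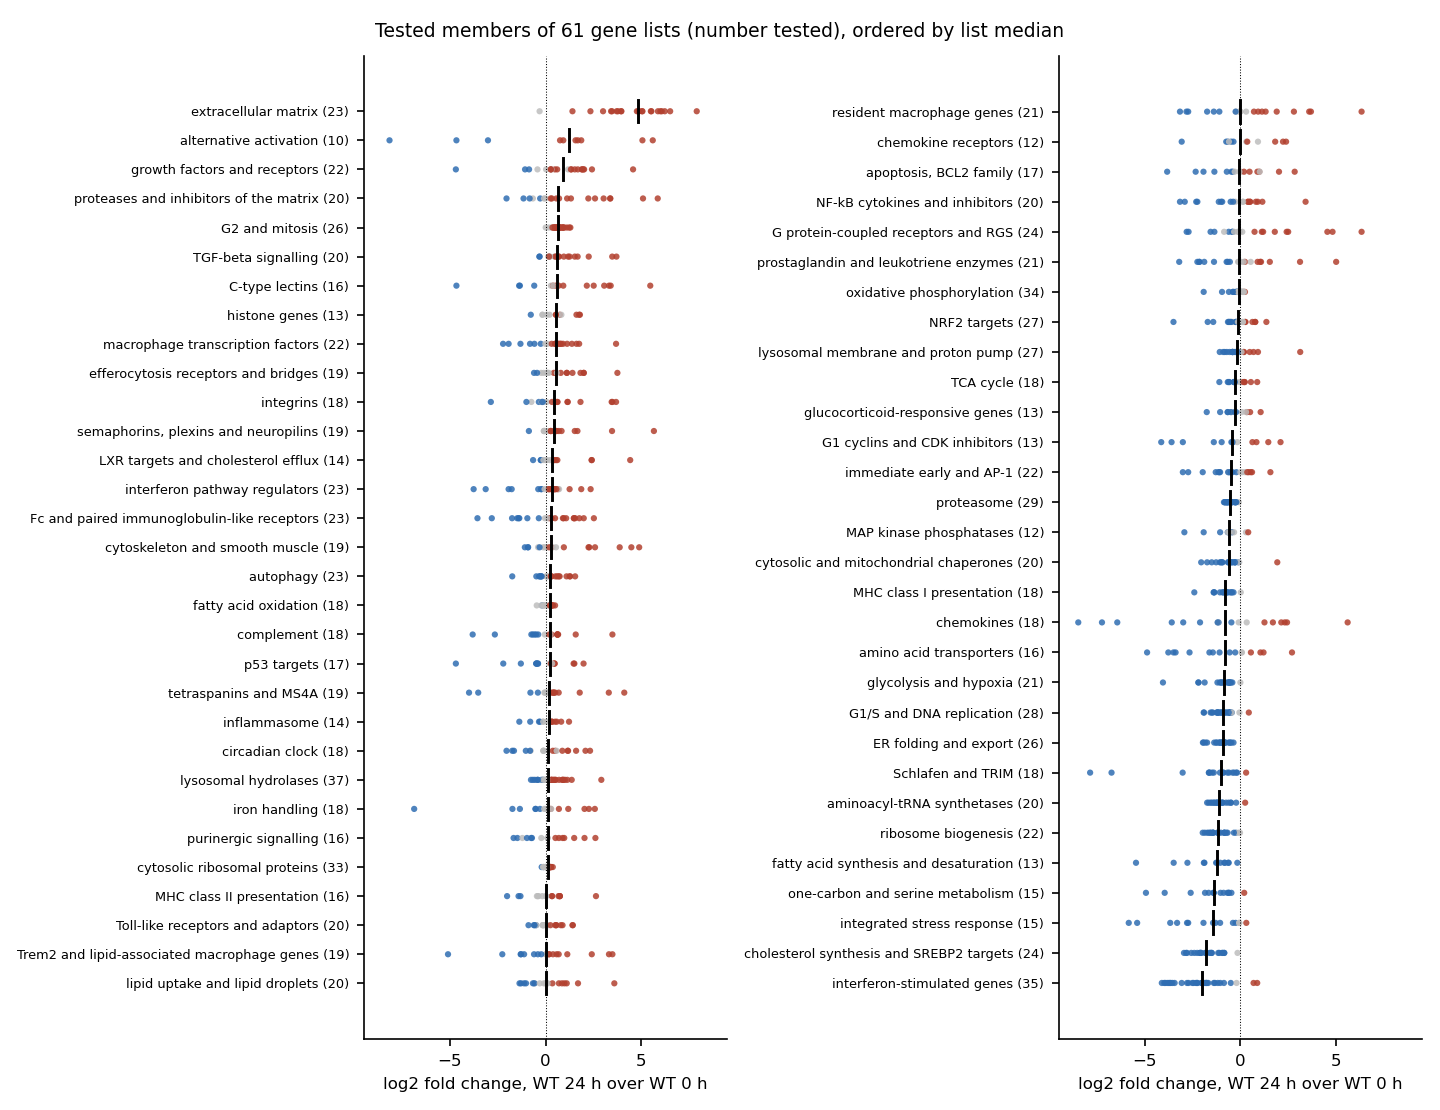
Log2 fold change (WT 24 h over WT 0 h) of each tested member of 61 gene lists, with the number tested in parentheses and lists ordered by their median (black bar); red points were called higher, blue lower and grey not called. Extracellular matrix genes lie farthest to the right, with 22 of 23 called higher, and interferon-stimulated genes farthest to the left, with 32 of 35 called lower. Some matrix genes had almost no reads at 0 h and passed the read filter only through 24 h libraries.

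Genes for the start of DNA replication and genes for mitosis moved in opposite directions. Of 28 tested genes for G1/S and DNA replication, 25 fell and 1 rose (median log2 fold change -0.90), whereas 23 of 26 genes for G2 and mitosis rose and none fell (median 0.64). Mcm2, a subunit of the helicase that unwinds origins, had 4.74, 4.21 and 3.09 RPKM at 24 h, against 14.5, 14.8 and 15 RPKM at 0 h (log2 fold change -1.90 with an SE of 0.125, adjusted p = 2.8e-07). Cdc6, which loads that helicase, had 1.41, 1.01 and 0.771 RPKM at 24 h, against 3.97, 3.88 and 3.88 RPKM at 0 h (log2 fold change -1.92 with an SE of 0.186, adjusted p = 5.31e-06). Its partner Cdt1 had 10.6, 9.65 and 8.48 RPKM at 24 h, against 25.2, 26.9 and 25.5 RPKM at 0 h (log2 fold change -1.44). For each of the 3 the 24 h libraries were all below the 0 h libraries, with replicate 3 the lowest. E2f1, a transcription factor for this gene group, fell less, by 0.82 on the log2 scale, with 13.3, 12.3 and 11 RPKM at 24 h, against 20.6, 21 and 22.7 RPKM at 0 h. The 1 member that rose, the thymidine kinase Tk1, overlapped between groups, with 12.7, 11.7 and 7.32 RPKM at 24 h, against 7.74, 7.12 and 7.86 RPKM at 0 h, and its call was lost under 10 of 14 alternative fits (adjusted p up to 0.165).

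The rises of mitotic genes were moderate in size. Cyclin B2 (Ccnb2) had 69.4, 83.5 and 65.1 RPKM at 24 h, against 29.7, 28.7 and 29.6 RPKM at 0 h (log2 fold change 1.30 with an SE of 0.122, adjusted p = 5.77e-06). Kif20a, a kinesin of the central spindle, had 27.4, 29.9 and 21.3 RPKM at 24 h, against 10.3, 11.1 and 11.6 RPKM at 0 h (log2 fold change 1.24 with an SE of 0.143, adjusted p = 2.94e-05). Survivin (Birc5), of the chromosomal passenger complex, had 19.8, 21.3 and 15.6 RPKM at 24 h, against 9.54, 9.57 and 10.6 RPKM at 0 h (log2 fold change 0.92). Replicate 3 was the lowest of the 24 h libraries in each, yet still above all 0 h libraries. Over the list, transcripts for G2 and mitosis made up 0.274%, 0.284% and 0.203% of the length-scaled total at 24 h, against 0.151%, 0.142% and 0.154% at 0 h. Without replicate 3 at 24 h, 25 mitotic genes rose and none fell, and 24 replication genes fell.

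**Figure D3:**
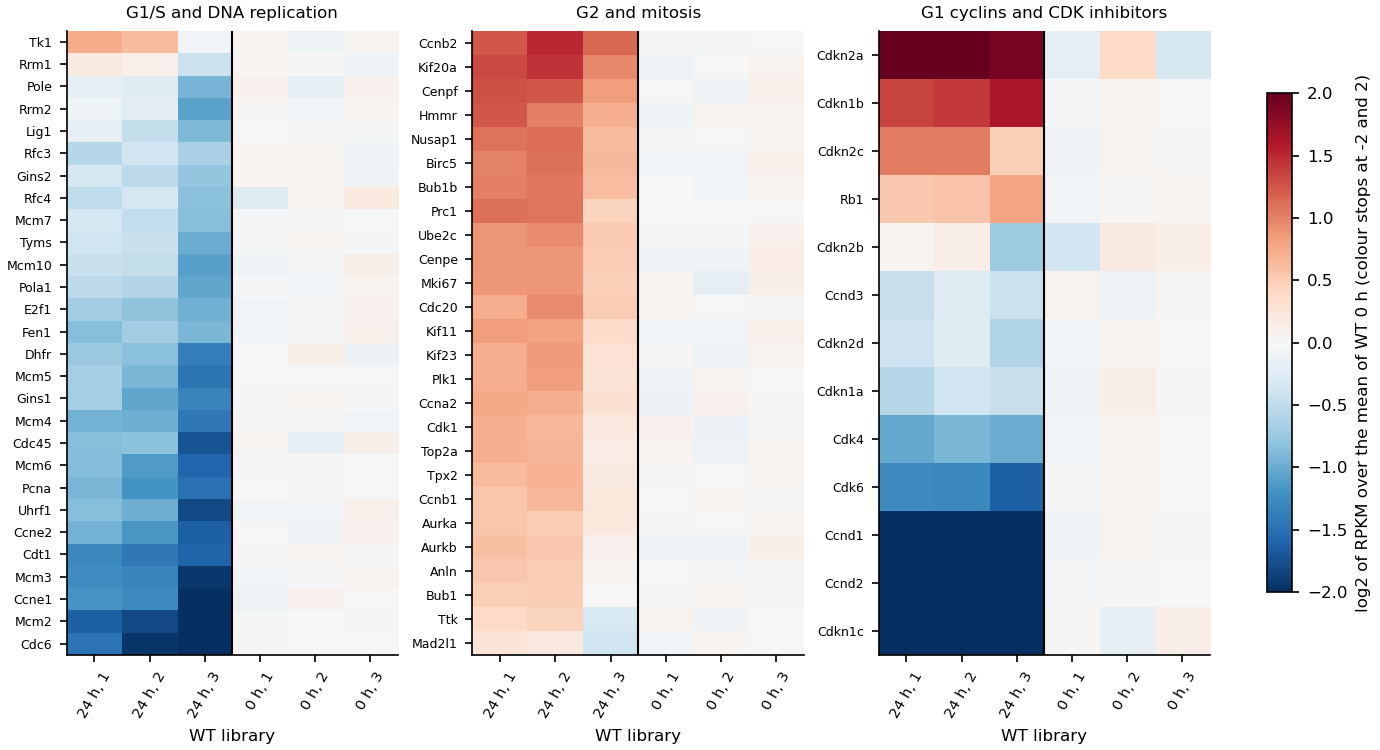
Level of each gene for G1/S and DNA replication (left), G2 and mitosis (middle) and the G1 cyclins with CDK inhibitors (right) in each WT library, as log2 of RPKM over the mean of the 0 h libraries; colours stop at -2 and 2. Replication genes are blue and mitotic genes red in the 24 h columns, and replicate 3 at 24 h is the lowest of its group in most rows of both.

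Regulators that gate entry into the cycle held larger changes, with 4 of 13 higher and 8 lower. Cyclin D1 (Ccnd1), the partner of CDK4 that carries growth signals, had 17.5, 14.7 and 12.6 RPKM at 24 h, against 114, 124 and 121 RPKM at 0 h (log2 fold change -3.01 with an SE of 0.0994, adjusted p = 3.29e-09). Cyclin D2 (Ccnd2) had 1.17, 1.07 and 0.899 RPKM at 24 h, against 12.3, 12.9 and 12.8 RPKM at 0 h (log2 fold change -3.60 with an SE of 0.137, adjusted p = 5.62e-09). Cdk4 itself had 21.7, 23.4 and 22.2 RPKM at 24 h, against 42.7, 45.7 and 44.5 RPKM at 0 h (log2 fold change -0.98). All 3 thus fell with no overlap between the groups. The CDK inhibitors did not move together. Cdkn1b, which encodes p27, had 24.3, 25.4 and 29.5 RPKM at 24 h, against 9.3, 9.79 and 9.6 RPKM at 0 h (log2 fold change 1.46). Cdkn2a, the locus of p16 and p19ARF, had 8.44, 9.56 and 7.48 RPKM at 24 h, against 1.76, 2.63 and 1.61 RPKM at 0 h (log2 fold change 2.10). Cdkn1c, which encodes p57, had 1.15, 1.87 and 1.28 RPKM at 24 h, against 25.4, 22.3 and 27.5 RPKM at 0 h (log2 fold change -4.14).

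The windows from 250 bases before to 50 bases after the start of each gene (RefSeq, mouse build GRCm38.p6) were searched on both strands for short motifs known from each gene group, and 10462 tested genes had a window. Shares here and below count genes that have a window, and a gene held a motif where any of its windows held it. An E2F motif, TTTGGCGC or TTTCGCGC, was present in 9 of 22 replication genes (40.9%), against 1.75% of all tested genes. The cell cycle homology region (CHR), TTTGAA, was present in 16 of 22 mitotic genes (72.7%), against 14.5%, and a CCAAT box, CCAAT, in 18 of 22 (81.8%), against 43.2%. The window of Mcm3, another helicase subunit (15.7, 14.9 and 9.68 RPKM at 24 h, against 35.8, 36.3 and 38.9 RPKM at 0 h), and that of Ccnb2 are shown as an example of each class, with the motifs in capitals; Mcm3 was chosen after its values were seen. They lie at chr1:20820263-20820562 and chr9:70421505-70421804, both on the minus strand, and are written 5′ to 3′ along the gene.
Mcm3: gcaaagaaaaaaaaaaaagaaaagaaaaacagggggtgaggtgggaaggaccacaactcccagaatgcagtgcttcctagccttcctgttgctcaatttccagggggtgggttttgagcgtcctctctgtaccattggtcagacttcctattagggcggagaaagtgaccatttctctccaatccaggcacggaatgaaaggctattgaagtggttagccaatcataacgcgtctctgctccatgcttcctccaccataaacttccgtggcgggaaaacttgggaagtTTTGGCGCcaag
Ccnb2: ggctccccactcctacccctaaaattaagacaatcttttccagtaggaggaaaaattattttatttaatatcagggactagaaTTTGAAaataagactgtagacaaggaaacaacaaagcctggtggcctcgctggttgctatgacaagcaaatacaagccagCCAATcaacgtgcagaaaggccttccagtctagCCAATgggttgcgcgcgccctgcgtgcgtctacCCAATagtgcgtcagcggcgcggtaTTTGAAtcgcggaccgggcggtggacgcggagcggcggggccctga
In the Mcm3 window the capitals mark 1 E2F match, and in the Ccnb2 window 3 CCAAT boxes and 2 CHR matches.

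Genes that make lipid were low at 24 h. All 13 tested genes for fatty acid synthesis and desaturation fell (median log2 fold change -1.22), 8 of them at least 2-fold. Scd1, a desaturase that makes oleic acid, had 0.7, 0.563 and 0.525 RPKM at 24 h, against 26.7, 26.6 and 25.6 RPKM at 0 h (log2 fold change -5.46 with an SE of 0.152, adjusted p = 8.15e-10). Scd2, the desaturase that was more abundant, had 12.4, 13.3 and 12 RPKM at 24 h, against 138, 145 and 141 RPKM at 0 h (log2 fold change -3.49 with an SE of 0.0529, adjusted p = 2.03e-11). Fads2, which desaturates polyunsaturated fatty acids, had 8.23, 7.7 and 5.81 RPKM at 24 h, against 47.3, 51.1 and 48.7 RPKM at 0 h (log2 fold change -2.77). The libraries of each group lay close together for all 3, and the groups were well apart. In sterol synthesis 23 of 24 tested genes fell (median -1.80). The list made up 0.0639%, 0.0611% and 0.0587% of the length-scaled total at 24 h, against 0.195%, 0.206% and 0.193% at 0 h. The sterol element TCACNCCAC was present in 1 of 17 sterol synthesis genes with a window and in 0 of 10 fatty acid synthesis genes, against 1.37% of all tested genes.

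Handling of lipid that is already present was mixed. Of 20 genes for lipid uptake and droplets 7 rose and 6 fell, where 55.4% of all tested genes were called. Cd36, a receptor for ox-LDL and fatty acids, had 557, 476 and 435 RPKM at 24 h, against 264, 279 and 264 RPKM at 0 h (log2 fold change 0.86 with an SE of 0.091, adjusted p = 1.54e-05). Cxcl16, a membrane chemokine that also binds oxidized lipoprotein, had 47.5, 45 and 46.2 RPKM at 24 h, against 14.1, 12.9 and 15.9 RPKM at 0 h (log2 fold change 1.70 with an SE of 0.07, adjusted p = 9.16e-09). Plin2, the coat protein of lipid droplets, had 139, 120 and 135 RPKM at 24 h, against 307, 332 and 317 RPKM at 0 h, a fall (log2 fold change -1.28). The droplet lipase Pnpla2 had 34.1, 37.6 and 44.1 RPKM at 24 h, against 19, 19.1 and 19.9 RPKM at 0 h, a rise (log2 fold change 0.99). Of 14 LXR targets and genes for cholesterol efflux 7 rose and 3 fell (median 0.33). The exporter Abca1 had 85.8, 82.2 and 105 RPKM at 24 h, against 16.2, 16.7 and 18.3 RPKM at 0 h, and Apoc1 had 62 reads in the 24 h libraries together, against 1 read at 0 h (53.9-fold higher, 95% exact interval 9.32 to 2163 for counting error only). Lpcat3, a phospholipid acyltransferase that LXR induces, had 16, 17.5 and 15.6 RPKM at 24 h, against 24.4, 26.5 and 25.9 RPKM at 0 h, and fell (log2 fold change -0.65). Npc1 and Npc2, which carry cholesterol out of lysosomes, fell slightly (log2 fold changes -0.24 and -0.25).

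In energy metabolism the genes of a list for glycolysis and hypoxia fell together: 20 of 21 fell and none rose (median log2 fold change -0.86). Pfkp, a phosphofructokinase, had 5.55, 5.03 and 4.51 RPKM at 24 h, against 18, 18.3 and 18.8 RPKM at 0 h (log2 fold change -1.87 with an SE of 0.0763, adjusted p = 8.46e-09). The lactate exporter Slc16a3 had 6.34, 6.72 and 6.6 RPKM at 24 h, against 30.6, 31.6 and 27.6 RPKM at 0 h (log2 fold change -2.19 with an SE of 0.087, adjusted p = 7.4e-09). Fatty acid oxidation had 10 of 18 members higher and 1 lower, all by under 2-fold (median 0.24). Cpt1a, which admits fatty acids to mitochondria, had 22.8, 23.7 and 25.5 RPKM at 24 h, against 18.3, 19.4 and 19.3 RPKM at 0 h (log2 fold change 0.34). The 1 that fell, Acadl (-0.18), lost its call under 5 of 14 alternative fits. The tricarboxylic acid cycle was split, with 5 of 18 higher and 10 lower. The catalytic subunit Idh3a of isocitrate dehydrogenase had 5.26, 5.1 and 4.07 RPKM at 24 h, against 10.2, 10.5 and 10 RPKM at 0 h (log2 fold change -1.10), while its partner Idh3g rose (36.8, 40.9 and 40.1 RPKM at 24 h, against 28, 27.7 and 24.6 RPKM at 0 h; log2 fold change 0.55). Fumarase (Fh1) had 22.3, 21.5 and 25.9 RPKM at 24 h, against 12, 13 and 12.9 RPKM at 0 h (log2 fold change 0.88). Of 34 oxidative phosphorylation genes 21 did not pass the test, 11 fell and 2 rose (median -0.08), and with upper-quartile scaling 6 fell and 10 rose. Cytochrome c (Cycs) was the exception in size, with 8.5, 7.23 and 6.14 RPKM at 24 h, against 26.5, 27.8 and 28 RPKM at 0 h (log2 fold change -1.92).

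Genes that supply amino acids and build proteins were lower at 24 h in several groups. In serine and one-carbon metabolism 14 of 15 genes fell and 1, Paics, rose (0.20). Phgdh, which opens the serine pathway, had 1.22, 1.03 and 1.19 RPKM at 24 h, against 34.3, 35.8 and 36 RPKM at 0 h (log2 fold change -4.94 with an SE of 0.0886, adjusted p = 4.25e-11). Every 24 h library was far below every 0 h library for Phgdh. The mitochondrial folate enzyme Mthfd2 had 5.89, 5.78 and 4.27 RPKM at 24 h, against 30.9, 32.8 and 32.1 RPKM at 0 h (log2 fold change -2.60 with an SE of 0.109, adjusted p = 1.1e-08). Of 15 genes of the integrated stress response, which runs through the factor ATF4 when amino acids are short or proteins misfold, 12 fell and only Cebpg rose (0.31). Trib3, a pseudokinase induced by ATF4, had 1.34, 0.972 and 0.688 RPKM at 24 h, against 37.8, 47.6 and 38.6 RPKM at 0 h (log2 fold change -5.40). Ppp1r15a (GADD34), which restarts translation, had 3.92, 3.13 and 4.66 RPKM at 24 h, against 26.3, 28.8 and 24.9 RPKM at 0 h (log2 fold change -2.79).

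Among 16 amino acid transporters 10 fell and 4 rose. Slc7a5, which carries large neutral amino acids, had 2.27, 2.09 and 2.05 RPKM at 24 h, against 28.3, 32.2 and 27.6 RPKM at 0 h (log2 fold change -3.77 with an SE of 0.106, adjusted p = 8.42e-10). Slc7a11, the cystine and glutamate exchanger, had 0.373, 0.406 and 0.506 RPKM at 24 h, against 4.72, 4.61 and 5.12 RPKM at 0 h (log2 fold change -3.50 with an SE of 0.176, adjusted p = 3.48e-08). Both transporters stood lower in every 24 h library. The members that rose included transporters of the lysosome membrane. Slc36a1 had 18.9, 21.1 and 23.4 RPKM at 24 h, against 8.99, 9.09 and 9.22 RPKM at 0 h (log2 fold change 1.21). Slc38a9, an arginine sensor for mTORC1, had 2.78, 2.92 and 3.29 RPKM at 24 h, against 1.49, 1.51 and 1.35 RPKM at 0 h (log2 fold change 1.05). Slc7a2, an arginine carrier of the cell surface, had 0.546, 0.673 and 0.64 RPKM at 24 h, against 0.0833, 0.124 and 0.0769 RPKM at 0 h (log2 fold change 2.70). Of 20 aminoacyl-tRNA synthetases, which charge tRNAs, 19 fell (median -1.13), and Qars was the 1 that rose (20.5, 21.6 and 23 RPKM at 24 h, against 18, 18 and 18.7 RPKM at 0 h; log2 fold change 0.25). Aars, for alanine, had 11, 10 and 9.28 RPKM at 24 h, against 32.7, 35.5 and 33.1 RPKM at 0 h (log2 fold change -1.74). Sars, for serine, had 15.9, 16.8 and 16.2 RPKM at 24 h, against 49.5, 54.8 and 50.1 RPKM at 0 h (log2 fold change -1.66).

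Ribosome biogenesis had 20 of 22 genes lower and none higher (median -1.16). The nucleolar GTPase Gnl3 had 2.05, 1.96 and 2.3 RPKM at 24 h, against 8.58, 7.99 and 8.15 RPKM at 0 h (log2 fold change -1.97 with an SE of 0.0884, adjusted p = 1.6e-08). The helicase Ddx21 had 10.5, 10.3 and 10.4 RPKM at 24 h, against 31, 32.2 and 29.8 RPKM at 0 h (log2 fold change -1.57 with an SE of 0.0552, adjusted p = 3.51e-09). The ribosomal proteins did not follow: 15 of 33 rose and 2 fell, by small amounts (median 0.11, range -0.20 to 0.38), and with upper-quartile scaling, which moved all log2 fold changes up by 0.09, 26 rose and 1 fell. They made up 3.00%, 3.08% and 3.04% of the length-scaled total at 24 h, against 2.79%, 2.79% and 2.73% at 0 h. These genes have many near-identical copies, so their counts are uncertain.

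In the ER all 26 tested genes for folding and export fell (median -0.93). The chaperone BiP (Hspa5) had 146, 135 and 138 RPKM at 24 h, against 468, 535 and 487 RPKM at 0 h (log2 fold change -1.83 with an SE of 0.0583, adjusted p = 2.28e-09). Manf, a secreted ER stress factor, had 14.5, 12.7 and 13 RPKM at 24 h, against 49.1, 53.6 and 50 RPKM at 0 h (log2 fold change -1.93 with an SE of 0.0731, adjusted p = 5.55e-09). Cytosolic and mitochondrial chaperones fell in 18 of 20 cases, with mitochondrial Hspa9 at 34.5, 29.4 and 29.7 RPKM at 24 h, against 97.8, 112 and 103 RPKM at 0 h (log2 fold change -1.74). Hspb1 rose by 1.93 on the log2 scale, a call lost under 8 of 13 alternative fits (adjusted p up to 0.131). Proteasome subunits fell in 28 of 29 cases, none by 2-fold (median -0.53). The catalytic subunit Psmb6 had 49.3, 51 and 48.1 RPKM at 24 h, against 84.8, 96.8 and 87.1 RPKM at 0 h (log2 fold change -0.86).

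The C/EBP-ATF response element (CARE) bound by ATF4, TGATGNAA, was present in 6 of 14 genes of the integrated stress response (42.9%), 5 of 13 of the synthetases (38.5%), 3 of 11 of the transporters (27.3%) and 0 of 12 of one-carbon metabolism, against 2.77% of all tested genes. The ER stress element (ERSE), CCAAT followed by any 9 bases and CCACG, was present in 8 of 21 ER genes (38.1%), against 0.153%. Chac1, which degrades glutathione and had the largest fall of the stress list, and Hspa5 are shown with these motifs in capitals; the Chac1 match lies on the reverse strand, and Chac1 was chosen after its values were seen. It had 0.179, 0.252 and 0.0812 RPKM at 24 h, against 9.06, 10.3 and 9.88 RPKM at 0 h (log2 fold change -5.84). The windows lie at chr2:119350992-119351291 and chr2:34771840-34772139, both on the plus strand of GRCm38.p6 (RefSeq), and hold 1 match each.
Chac1: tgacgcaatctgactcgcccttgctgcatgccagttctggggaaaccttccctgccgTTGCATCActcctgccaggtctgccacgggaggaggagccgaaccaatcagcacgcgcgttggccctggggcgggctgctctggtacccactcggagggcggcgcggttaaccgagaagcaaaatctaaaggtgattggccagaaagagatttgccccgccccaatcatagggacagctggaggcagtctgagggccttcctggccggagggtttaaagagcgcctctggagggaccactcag
Hspa5: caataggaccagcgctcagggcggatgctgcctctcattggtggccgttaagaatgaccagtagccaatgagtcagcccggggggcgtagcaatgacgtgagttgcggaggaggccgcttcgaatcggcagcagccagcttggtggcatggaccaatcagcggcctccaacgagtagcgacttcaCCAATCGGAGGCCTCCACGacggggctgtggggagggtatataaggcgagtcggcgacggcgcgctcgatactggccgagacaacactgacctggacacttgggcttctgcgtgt

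Interferon-stimulated genes fell in 32 of 35 cases and rose in 2 (median log2 fold change -2.03), 30 of them by at least 2-fold. They made up 0.310%, 0.288% and 0.291% of the length-scaled total at 24 h, against 1.39%, 1.49% and 1.45% at 0 h. Ifitm3, which blocks entry of viruses into cells, had 267, 261 and 291 RPKM at 24 h, against 1327, 1393 and 1364 RPKM at 0 h (log2 fold change -2.32 with an SE of 0.0561, adjusted p = 3.16e-10). The immunity GTPase Irgm1 had 9.33, 8.45 and 8.46 RPKM at 24 h, against 34.8, 36.2 and 34.8 RPKM at 0 h (log2 fold change -2.01 with an SE of 0.0768, adjusted p = 5.69e-09). The 2 that rose were guanylate-binding proteins induced by interferon-gamma. Gbp7 had 8, 7.73 and 10.2 RPKM at 24 h, against 4.22, 6.26 and 5.66 RPKM at 0 h (log2 fold change 0.69). Gbp5 had 2.16, 1.58 and 2.54 RPKM at 24 h, against 0.999, 1.53 and 0.912 RPKM at 0 h (log2 fold change 0.88). Schlafen and TRIM genes, many of which interferon also induces, fell in 17 of 18 cases (median -0.99), with Slfn1 at 0.0525, 0.0739 and 0.0475 RPKM at 24 h, against 6.27, 6.9 and 9.4 RPKM at 0 h (log2 fold change -6.74) and Trim30a at 28.6, 27.1 and 29.6 RPKM at 24 h, against 72.7, 75 and 75.7 RPKM at 0 h (log2 fold change -1.39).

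The machinery that carries interferon signals did not fall as a whole: 14 of 23 regulators rose and 7 fell (median 0.32), and 9 rose at an adjusted p under 0.01. Stat2, a signal transducer of type I interferon, had 17, 17.2 and 16.4 RPKM at 24 h, against 61.3, 65.2 and 66 RPKM at 0 h (log2 fold change -1.93 with an SE of 0.104, adjusted p = 7.61e-08). Irf7, which amplifies type I interferon, had 12.2, 10.9 and 9.01 RPKM at 24 h, against 134, 152 and 147 RPKM at 0 h (log2 fold change -3.76). Both genes are themselves induced by interferon, and neither overlapped between the groups. The receptor chains Ifngr1 and Ifnar2 were higher. Ifngr1 had 88.1, 85.1 and 90.4 RPKM at 24 h, against 36.9, 36.6 and 36.2 RPKM at 0 h (log2 fold change 1.26). Ifnar2 had 39.8, 40.3 and 40.9 RPKM at 24 h, against 25.3, 29.3 and 26.8 RPKM at 0 h (log2 fold change 0.57). The SOCS feedback inhibitors moved apart. Socs3 had 2.79, 2.79 and 3.86 RPKM at 24 h, against 0.714, 0.391 and 0.767 RPKM at 0 h (log2 fold change 2.36). Its relative Socs1 had 0.168, 0.126 and 0.335 RPKM at 24 h, against 1.83, 1.52 and 1.93 RPKM at 0 h (log2 fold change -3.13).

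Presentation on MHC class I fell in 17 of 18 cases (median -0.79), and Tapbpl, a peptide editor, was the 1 that did not pass the test (log2 fold change 0.02). B2m, the light chain of class I, had 1424, 1361 and 1425 RPKM at 24 h, against 2341, 2478 and 2449 RPKM at 0 h (log2 fold change -0.79 with an SE of 0.0465, adjusted p = 1.12e-07). H2-T23, a nonclassical class I gene, had 60, 54 and 55.2 RPKM at 24 h, against 143, 154 and 150 RPKM at 0 h (log2 fold change -1.40 with an SE of 0.0582, adjusted p = 9.34e-09). On the class II side 7 of 16 genes rose and 3 fell. The 3 that fell encode class II chains: H2-Eb1, H2-Aa (log2 fold change -1.41) and H2-Ab1 (log2 fold change -1.31). H2-Eb1 had 4.46, 1.68 and 2.46 RPKM at 24 h, against 10.7, 10.1 and 11.2 RPKM at 0 h, with replicate 1 the highest at 24 h (log2 fold change -2.01). Marchf1, a ubiquitin ligase that removes class II from the surface, had 13.2, 13.3 and 15.7 RPKM at 24 h, against 2.16, 2.26 and 2.32 RPKM at 0 h (log2 fold change 2.64). Ifi30, a reductase that opens antigens in lysosomes, had 80.6, 81.6 and 83.3 RPKM at 24 h, against 47.9, 51.5 and 53.5 RPKM at 0 h (log2 fold change 0.68). Class I and class II genes are near-identical families, and their counts are uncertain.

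The interferon-stimulated response element (ISRE), GAAA followed by any 2 bases and GAAA again, was present in 18 of 25 interferon-stimulated genes (72%), 10 of 17 Schlafen and TRIM genes (58.8%) and 4 of 15 genes of class I presentation (26.7%), against 4% of all tested genes. Isg15, a ubiquitin-like modifier with 15.3, 11 and 12.5 RPKM at 24 h, against 204, 246 and 217 RPKM at 0 h, is shown, with 3 overlapping matches in capitals. Its window lies at chr4:156200769-156201068 on the minus strand of GRCm38.p6 (RefSeq).
Isg15: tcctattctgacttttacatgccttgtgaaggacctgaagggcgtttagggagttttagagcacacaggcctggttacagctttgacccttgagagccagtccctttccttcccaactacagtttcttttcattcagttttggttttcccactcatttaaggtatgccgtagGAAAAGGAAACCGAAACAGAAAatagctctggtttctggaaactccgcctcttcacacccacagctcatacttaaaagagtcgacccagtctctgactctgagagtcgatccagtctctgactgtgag

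**Figure D4:**
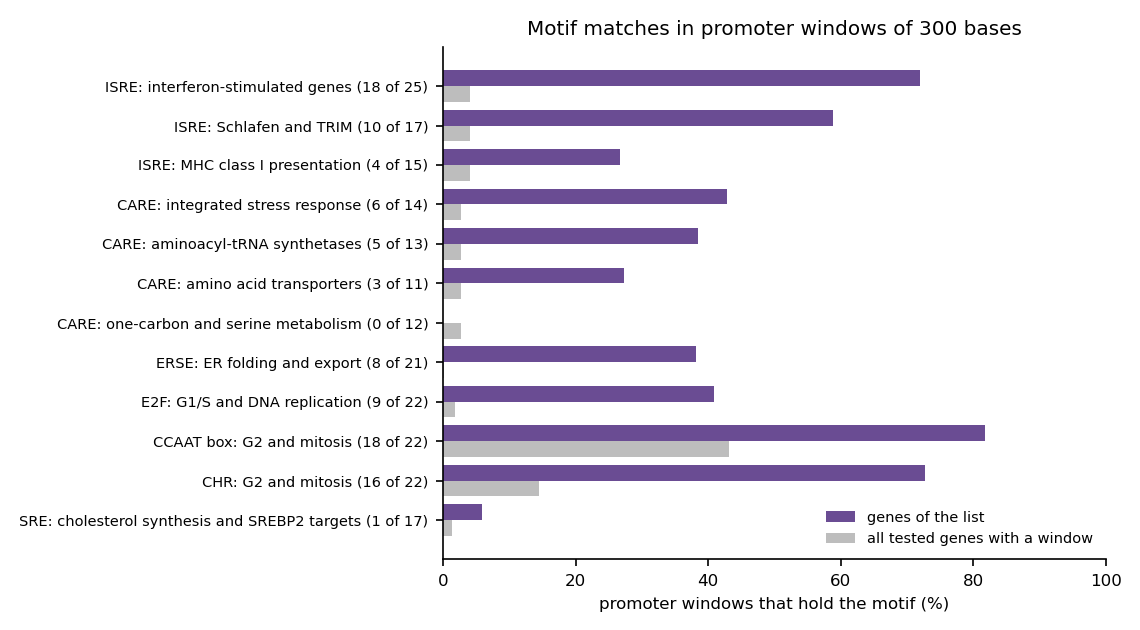
Share of genes that hold each motif in any of their promoter windows of 300 bases, in the named gene list (purple, with counts in parentheses) and in all 10462 tested genes that have a window (grey). Of the pairs drawn, the share is higher in the list in all but CARE in one-carbon and serine metabolism, where 0 of 12 genes hold it. For the sterol element in sterol synthesis genes the higher share rests on 1 of 17 genes. The sterol element in fatty acid synthesis genes, with 0 of 10 genes, is not drawn.

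Chemokines fell in 9 of 18 cases and rose in 6. Ccl7, which attracts monocytes, had 0.428, 1.15 and 0.774 RPKM at 24 h, against 233, 317 and 268 RPKM at 0 h (log2 fold change -8.48 with an SE of 0.541, adjusted p = 3.24e-07). Ccl12 had 0.638, 0.513 and 0.33 RPKM at 24 h, against 39.6, 51 and 45.4 RPKM at 0 h (log2 fold change -6.44 with an SE of 0.324, adjusted p = 6.42e-08). Ccl4, which attracts T cells and monocytes, had 9.12, 10.4 and 8.59 RPKM at 24 h, against 108, 119 and 112 RPKM at 0 h (log2 fold change -3.59). Cxcl14, a chemokine of epithelia and stroma, rose. It had 24.1, 24.3 and 18.6 RPKM at 24 h, against 4.58, 4.42 and 4.23 RPKM at 0 h (log2 fold change 2.32), and Ccl24, an attractant of eosinophils, had 83 reads at 24 h and 0 reads at 0 h, at least 24.1-fold higher. With the stricter filter on reads 3 chemokines rose. Chemokine receptors were split, with 4 of 12 higher and 5 lower. Cx3cr1, the fractalkine receptor, had 14.9, 18.3 and 13.2 RPKM at 24 h, against 3.49, 2.56 and 3.88 RPKM at 0 h (log2 fold change 2.23). Cxcr4, the receptor of CXCL12, had 58.8, 63.5 and 74.5 RPKM at 24 h, against 13.2, 12.1 and 12 RPKM at 0 h (log2 fold change 2.39). Ccr2 had 5.58, 4.79 and 5.75 RPKM at 24 h, against 44.1, 44.9 and 45.8 RPKM at 0 h (log2 fold change -3.07). Ccr2 also marks classical monocytes, whose markers fell.

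Inflammatory signalling genes went both ways. Of 20 NF-kB cytokines and inhibitors 8 rose and 9 fell, 2 and 6 of them by at least 2-fold. Tnf was among those that fell (log2 fold change -2.31). The cytokine gene Il1b was low, with 1.26, 0.891 and 1.39 RPKM at 24 h, against 0.142, 0.108 and 0.0567 RPKM at 0 h, and rose (log2 fold change 3.41 with an SE of 0.32, adjusted p = 4.06e-06). Its antagonist Il1rn had 1.15, 1.13 and 1.14 RPKM at 24 h, against 10.5, 10.4 and 9.77 RPKM at 0 h (log2 fold change -3.16 with an SE of 0.115, adjusted p = 4.29e-09). Csf1, which encodes M-CSF, had 2.04, 1.69 and 1.95 RPKM at 24 h, against 12.5, 17.4 and 13.1 RPKM at 0 h (log2 fold change -2.91). Both Il1rn and Csf1 were thus lower in every 24 h library. Relb, of the alternative NF-kB pathway, had 11.8, 10.8 and 12.3 RPKM at 24 h, against 5.48, 7.34 and 5.89 RPKM at 0 h (log2 fold change 0.91). In the inflammasome list 7 of 14 rose and 4 fell. The sensor Nlrp3 had 14, 15.6 and 15.3 RPKM at 24 h, against 24.6, 27.9 and 25.6 RPKM at 0 h (log2 fold change -0.80). Nlrp1b had 6.43, 6.96 and 6.32 RPKM at 24 h, against 2.55, 3.03 and 2.84 RPKM at 0 h (log2 fold change 1.23). Of 20 Toll-like receptors and adaptors 8 rose and 4 fell, where 55.4% of all tested genes were called. Tlr2, a receptor of bacterial lipopeptides, had 37.1, 38.3 and 44.7 RPKM at 24 h, against 14.7, 15.9 and 14.5 RPKM at 0 h (log2 fold change 1.41). Tlr8 had 66.8, 62 and 70.7 RPKM at 24 h, against 23.6, 26.1 and 24.5 RPKM at 0 h (log2 fold change 1.43). The endotoxin receptor Tlr4 had 17.6, 17.9 and 20.5 RPKM at 24 h, against 26, 25.5 and 26.6 RPKM at 0 h (log2 fold change -0.49). For each of these 3 receptors the groups did not overlap. The immediate early factor Myc, with 2.22, 1.96 and 2.07 RPKM at 24 h, against 15.9, 19.3 and 15.6 RPKM at 0 h, fell, and 13 of 22 genes of that list fell and 5 rose.

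Receptors of the cell surface changed in both directions. Of 23 Fc and paired receptors 13 rose and 8 fell. Fcgrt, which salvages IgG and albumin, had 83.2, 81.1 and 116 RPKM at 24 h, against 15.1, 17.8 and 15.1 RPKM at 0 h, with replicate 3 the highest (log2 fold change 2.53 with an SE of 0.133, adjusted p = 8.21e-08). Fcgr3, an activating receptor for IgG, had 306, 317 and 367 RPKM at 24 h, against 150, 164 and 152 RPKM at 0 h (log2 fold change 1.08 with an SE of 0.0783, adjusted p = 5.88e-07). Both of these Fc receptors were higher in every 24 h library. Siglec1, a sialic acid receptor that interferon induces, had 21.9, 22.1 and 28 RPKM at 24 h, against 166, 157 and 179 RPKM at 0 h (log2 fold change -2.81). The inhibitory receptor Lilrb4a had 72.4, 72.5 and 63.1 RPKM at 24 h, against 131, 132 and 138 RPKM at 0 h (log2 fold change -0.95). C-type lectins rose in 10 of 16 cases and fell in 4. Clec7a, the beta-glucan receptor Dectin-1, had 63.2, 50.8 and 59.3 RPKM at 24 h, against 6.12, 5.25 and 5.88 RPKM at 0 h (log2 fold change 3.32). Clec4a2 had 41, 33.4 and 37 RPKM at 24 h, against 4.31, 4.61 and 4.31 RPKM at 0 h (log2 fold change 3.07). Clec4e (Mincle), a receptor of mycobacterial glycolipid, had 5.95, 6.4 and 6.24 RPKM at 24 h, against 16.4, 15.7 and 15 RPKM at 0 h (log2 fold change -1.34). For all of these receptors the 24 h libraries lay on 1 side of the 0 h libraries. Lilrb, Pira and Clec4a genes have close relatives, among which reads may have been split.

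Integrins rose in 10 of 18 cases and fell in 5 (3 with upper-quartile scaling, without the low-read filter, or without WT 24 h replicate 1 or WT 0 h replicate 3, and 2 at a threshold of 0.01). Itgal, the alpha chain of LFA-1, had 31.5, 32.5 and 30.6 RPKM at 24 h, against 2.95, 2.82 and 2.8 RPKM at 0 h (log2 fold change 3.46 with an SE of 0.0604, adjusted p = 4.25e-11). Itgax, which encodes CD11c, had 27.4, 22 and 20.4 RPKM at 24 h, against 1.97, 1.97 and 2.17 RPKM at 0 h (log2 fold change 3.50 with an SE of 0.0955, adjusted p = 7.88e-10). Itga9 had 4.8, 4.79 and 4.64 RPKM at 24 h, against 0.339, 0.368 and 0.387 RPKM at 0 h (log2 fold change 3.69). Itgb7, a chain of gut-homing integrins, had 5.57, 4.89 and 4.45 RPKM at 24 h, against 36.5, 34.1 and 37.8 RPKM at 0 h (log2 fold change -2.86). No library of one group reached the level of the other for these 4 integrins. Of 19 efferocytosis genes, which serve the clearance of dead cells, 10 rose and 2 fell. The receptor kinase Mertk had 33.4, 36.8 and 40.7 RPKM at 24 h, against 8.61, 10.1 and 8.92 RPKM at 0 h (log2 fold change 2.00). Its relative Axl had 24.3, 21.8 and 21.8 RPKM at 24 h, against 33.7, 34.4 and 35.1 RPKM at 0 h (log2 fold change -0.60). Complement had 9 of 18 higher and 7 lower. The C5a receptor C5ar1 had 137, 130 and 132 RPKM at 24 h, against 219, 226 and 222 RPKM at 0 h (log2 fold change -0.74).

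In the tetraspanin and MS4A families 10 of 19 rose and 4 fell. Ms4a4a, a tetraspan protein of macrophages, had 101, 87.1 and 142 RPKM at 24 h, against 4.23, 10.3 and 5.3 RPKM at 0 h, with the lowest 24 h library well above the highest 0 h library (log2 fold change 4.12 with an SE of 0.286, adjusted p = 5.95e-07). Its relative Ms4a4c had 3.35, 3.3 and 4.5 RPKM at 24 h, against 36.9, 44.9 and 45.5 RPKM at 0 h (log2 fold change -3.52 with an SE of 0.177, adjusted p = 6.41e-08). Semaphorins, plexins and neuropilins rose in 12 of 19 cases and fell in 1, Plxna1 (32.4, 33 and 35 RPKM at 24 h, against 62.3, 56 and 65.1 RPKM at 0 h; log2 fold change -0.87). Of 24 G protein-coupled receptors and RGS genes 9 rose and 7 fell. The adhesion receptor Adgre4 had 8.38, 5.25 and 8.34 RPKM at 24 h, against 0.0934, 0.118 and 0.0465 RPKM at 0 h (log2 fold change 6.34). Lpar6, for lysophosphatidic acid, had 19.3, 18.2 and 19.4 RPKM at 24 h, against 2.92, 3.62 and 3.52 RPKM at 0 h (log2 fold change 2.50). Rgs1, which switches G proteins off, had 4.46, 3.4 and 2.81 RPKM at 24 h, against 23.6, 25.2 and 24.6 RPKM at 0 h (log2 fold change -2.81).

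**Figure D5:**
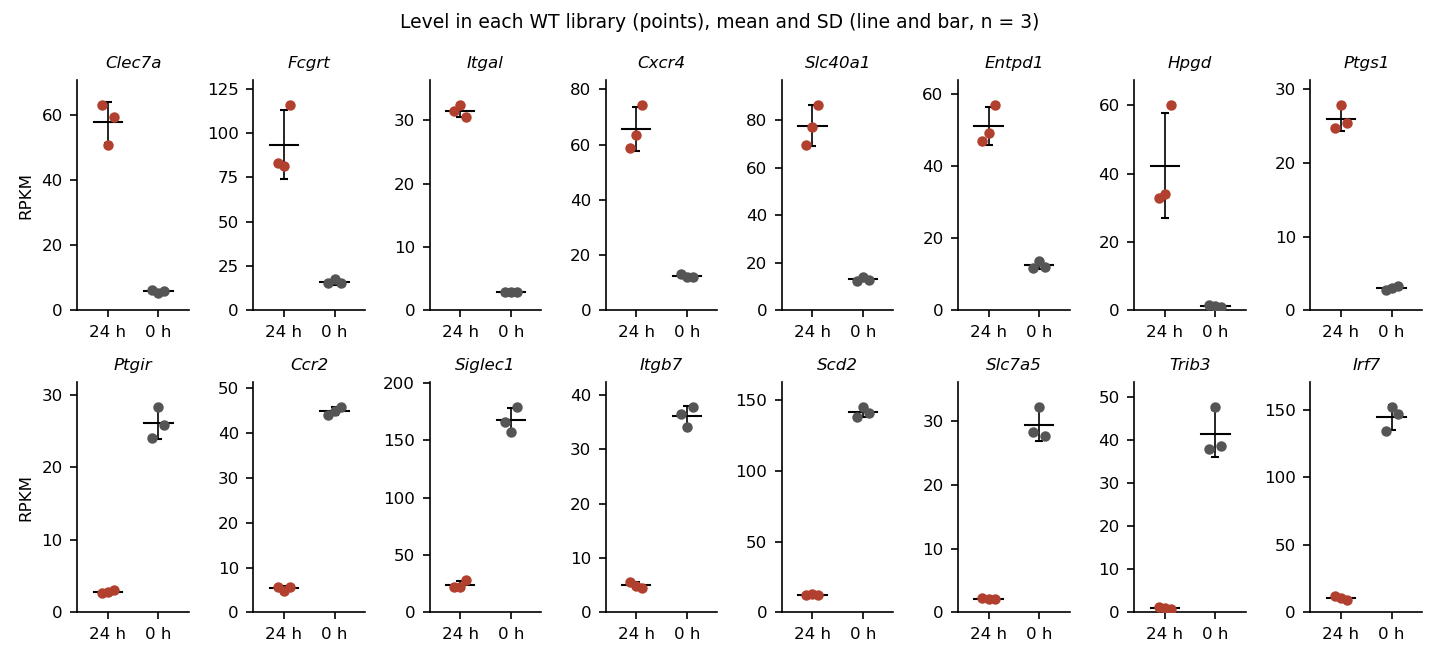
RPKM of 16 genes in each WT library, with 24 h on the left (red) and 0 h on the right (grey) in each panel; lines are means and bars SD (n = 3), and every axis starts at 0. The upper row holds genes called higher at 24 h, the lower row genes called lower, and no panel has overlapping groups.

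Enzymes and receptors of lipid mediators changed strongly. Of 21 genes for prostaglandins and leukotrienes 7 rose and 9 fell. Cyclooxygenase-1 (Ptgs1), which opens the prostaglandin pathway, had 24.7, 27.9 and 25.4 RPKM at 24 h, against 2.71, 2.97 and 3.29 RPKM at 0 h (log2 fold change 3.12 with an SE of 0.089, adjusted p = 9.45e-10). Hpgd, which inactivates prostaglandins, had 32.8, 34.1 and 60.2 RPKM at 24 h, against 1.61, 1.25 and 0.964 RPKM at 0 h, with replicate 3 the highest (log2 fold change 5.01 with an SE of 0.273, adjusted p = 1.06e-07). The prostacyclin receptor Ptgir had 2.7, 2.75 and 3.03 RPKM at 24 h, against 24, 28.3 and 25.8 RPKM at 0 h (log2 fold change -3.20). Cytosolic phospholipase A2 (Pla2g4a), which frees arachidonic acid, had 2.27, 2.23 and 2.24 RPKM at 24 h, against 10.7, 9.8 and 9.58 RPKM at 0 h (log2 fold change -2.15). Both Ptgir and Pla2g4a were thus lower in every 24 h library. 5-lipoxygenase (Alox5), which opens the leukotriene pathway, had 0.56, 0.805 and 0.593 RPKM at 24 h, against 2.58, 1.92 and 2.78 RPKM at 0 h (log2 fold change -1.89). In purinergic signalling 7 of 16 rose and 5 fell. Entpd1 (CD39), which hydrolyses extracellular ATP, had 47, 49.3 and 57.1 RPKM at 24 h, against 11.8, 13.6 and 11.9 RPKM at 0 h (log2 fold change 2.04). Receptors of nucleotides were split. The ATP-gated channel P2rx7 had 22.8, 24.8 and 26.7 RPKM at 24 h, against 8.3, 9.08 and 8.74 RPKM at 0 h (log2 fold change 1.5). The nucleotide receptor P2ry2 had 2.27, 2.31 and 2.37 RPKM at 24 h, against 7.56, 6.89 and 7.67 RPKM at 0 h (log2 fold change -1.67).

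Lysosomal enzymes and the lysosomal membrane went different ways. Of 37 hydrolases 18 rose and 7 fell (median 0.13), yet their summed share was 4.25%, 4.08% and 4.41% of the length-scaled total at 24 h, against 4.30%, 4.32% and 4.31% at 0 h. The mannosidase Man2b1 had 163, 163 and 177 RPKM at 24 h, against 63.9, 66.8 and 63.9 RPKM at 0 h (log2 fold change 1.37 with an SE of 0.0534, adjusted p = 6.49e-09). Cathepsin L (Ctsl) had 198, 181 and 197 RPKM at 24 h, against 84.1, 91 and 85.7 RPKM at 0 h (log2 fold change 1.14 with an SE of 0.0551, adjusted p = 2.59e-08). Cathepsin Z (Ctsz) had 394, 382 and 404 RPKM at 24 h, against 582, 585 and 569 RPKM at 0 h (log2 fold change -0.56). Of 27 genes for the membrane and proton pump 15 fell and 6 rose (median -0.17). The chloride and proton exchanger Clcn7 had 26.4, 27.1 and 28.4 RPKM at 24 h, against 57, 59.2 and 56.6 RPKM at 0 h (log2 fold change -1.08). The pump subunit Atp6v0d2, which is also an osteoclast marker, rose (55.8, 38.2 and 43.9 RPKM at 24 h, against 4.88, 5.72 and 4.92 RPKM at 0 h; log2 fold change 3.13). Of 8 tested osteoclast markers 5 rose and none fell, and Acp5 and Ctsk did not pass the test. Tfeb and Mitf, related transcription factors of lysosomal genes, were higher, with Tfeb at 10.1, 10.3 and 10.3 RPKM at 24 h, against 6.27, 6.61 and 6.19 RPKM at 0 h (log2 fold change 0.69) and Mitf at 15.6, 15.4 and 16.3 RPKM at 24 h, against 7.9, 8.55 and 8.5 RPKM at 0 h (log2 fold change 0.92).

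Autophagy genes rose in 12 of 23 cases and fell in 7 (4 with upper-quartile scaling, without WT 0 h replicate 2 or at a threshold of 0.01). The initiating kinase Ulk1 had 14.1, 16.8 and 19 RPKM at 24 h, against 5.65, 5.79 and 5.51 RPKM at 0 h (log2 fold change 1.55 with an SE of 0.0932, adjusted p = 1.28e-07). Gabarapl1, which coats autophagosomes, had 75.5, 73.7 and 84.5 RPKM at 24 h, against 35.8, 36.7 and 36.3 RPKM at 0 h (log2 fold change 1.10 with an SE of 0.0651, adjusted p = 1.13e-07). The cargo receptor p62 (Sqstm1), which is also an NRF2 target, had 149, 159 and 171 RPKM at 24 h, against 505, 579 and 520 RPKM at 0 h (log2 fold change -1.74). Of 27 NRF2 targets 11 fell and 6 rose. Sulfiredoxin (Srxn1) had 50.1, 44.4 and 43.7 RPKM at 24 h, against 121, 129 and 121 RPKM at 0 h (log2 fold change -1.42). The glutathione transferase Mgst1 had 28.2, 28.3 and 39.3 RPKM at 24 h, against 13.6, 12.4 and 10.9 RPKM at 0 h (log2 fold change 1.36). In iron handling 8 of 18 rose and 6 fell. Ferroportin (Slc40a1), the iron exporter of the cell surface, had 69.6, 77 and 86.6 RPKM at 24 h, against 12.4, 13.8 and 12.6 RPKM at 0 h (log2 fold change 2.58). Hfe, which regulates iron sensing, had 32.1, 35.3 and 39.6 RPKM at 24 h, against 8.26, 9.07 and 8.51 RPKM at 0 h (log2 fold change 2.04). The transferrin receptor Tfrc had 5.87, 5.31 and 6.85 RPKM at 24 h, against 15.1, 14.9 and 15.5 RPKM at 0 h (log2 fold change -1.34).

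Extracellular matrix genes rose in 22 of 23 cases and none fell, and markers of fibroblasts and stroma rose with them. Of 10 tested stromal markers 8 rose and none fell, and their summed level was 20.0 to 24.3 RPKM at 24 h and 2.42 to 3.17 RPKM at 0 h. Those that rose included Col1a1, Col1a2 and Col6a1 (log2 fold changes 6.52, 5.54 and 3.48). Lum and Dcn, named after their values were seen, had few reads. Lum had 2 reads in each group, and Dcn had 16 reads at 24 h and 24 reads at 0 h. The part of stromal cells in these rises was not tested. Members with almost no reads at 0 h, such as Postn and Col3a1 below, passed the read filter only through 24 h libraries. They could not have been counted as falling, so the counts of both lists lean towards rises. Fibronectin (Fn1) had 14.8, 13.4 and 11.2 RPKM at 24 h, against 0.419, 0.462 and 0.301 RPKM at 0 h (log2 fold change 5.07 with an SE of 0.183, adjusted p = 4.48e-09). Sparc, a collagen-binding glycoprotein, had 7.16, 6 and 5.29 RPKM at 24 h, against 0.588, 0.435 and 0.371 RPKM at 0 h (log2 fold change 3.72 with an SE of 0.33, adjusted p = 3.65e-06). The collagen chaperone Serpinh1 had 3.45, 2.78 and 2.99 RPKM at 24 h, against 0.222, 0.211 and 0.199 RPKM at 0 h (log2 fold change 3.79). Postn, a matrix protein of activated fibroblasts, had 598 reads at 24 h and 1 read at 0 h (520-fold higher, 95% exact interval 93 to 20572), and Col3a1 had 249 reads at 24 h and 3 reads at 0 h (72.2-fold higher, 24.4 to 352). Smooth muscle actin (Acta2) had 7.69, 7.55 and 6.13 RPKM at 24 h, against 0.297, 0.211 and 0.443 RPKM at 0 h (log2 fold change 4.49).

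In the lists of genes that cut the matrix or carry growth signals, rises outnumbered falls. Proteases and inhibitors of the matrix rose in 13 of 20 cases and fell in 4. Macrophage elastase (Mmp12) had 135, 104 and 97.1 RPKM at 24 h, against 11, 9.72 and 11.3 RPKM at 0 h (log2 fold change 3.38 with an SE of 0.116, adjusted p = 5.18e-09). Urokinase (Plau) had 24.5, 23.1 and 22.6 RPKM at 24 h, against 91.5, 106 and 91.8 RPKM at 0 h (log2 fold change -2.04 with an SE of 0.119, adjusted p = 1.73e-07). In TGF-beta signalling 14 of 20 rose and 2 fell. The receptor Tgfbr1 had 38.4, 35.5 and 36.2 RPKM at 24 h, against 11.3, 11.4 and 11.6 RPKM at 0 h (log2 fold change 1.68). The secreted protein Tgfbi had 109, 117 and 109 RPKM at 24 h, against 49.4, 47.7 and 51 RPKM at 0 h (log2 fold change 1.18). Growth factors and receptors rose in 14 of 22 cases and fell in 3. Pdgfb, a chain of platelet-derived growth factor, had 29.4, 25.1 and 23.2 RPKM at 24 h, against 5.21, 4.93 and 4.3 RPKM at 0 h (log2 fold change 2.43). Igf1 had 67.8, 68.6 and 75.4 RPKM at 24 h, against 18.9, 18.9 and 19.1 RPKM at 0 h (log2 fold change 1.90). Gdf15, a stress cytokine that ATF4 and p53 induce, had 4.76, 4.04 and 4.62 RPKM at 24 h, against 111, 123 and 113 RPKM at 0 h (log2 fold change -4.69).

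Transcription factors of the macrophage lineage rose in 14 of 22 cases and fell in 6. Cebpa had 68.7, 66.6 and 75.8 RPKM at 24 h, against 22.7, 24.1 and 21.7 RPKM at 0 h (log2 fold change 1.62 with an SE of 0.0588, adjusted p = 4.14e-09). Rxra, the partner of LXR and PPAR factors, had 15.9, 18.5 and 21.2 RPKM at 24 h, against 5.12, 5.65 and 5.54 RPKM at 0 h (log2 fold change 1.76). Id2, an inhibitor of helix-loop-helix factors, had 15, 15.6 and 14.6 RPKM at 24 h, against 35, 40.3 and 37.3 RPKM at 0 h (log2 fold change -1.31). Genes named for alternative activation were not uniform, with 7 of 10 tested members higher and 3 lower. The receptor chain Il4ra had 32.8, 35 and 37 RPKM at 24 h, against 10.2, 10.8 and 11.6 RPKM at 0 h (log2 fold change 1.69). Chil3, a chitinase-like lectin, had 0, 0.0844 and 0.0814 RPKM at 24 h, against 12.6, 17 and 15.3 RPKM at 0 h (log2 fold change -8.16).

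Survival genes and p53 targets were split. In the BCL2 family 6 of 17 rose and 7 fell. The survival gene Bcl2l1 (BCL-XL) had 13.5, 13.9 and 10.4 RPKM at 24 h, against 45.7, 49.8 and 47.5 RPKM at 0 h (log2 fold change -1.93 with an SE of 0.0946, adjusted p = 3.33e-08). Bcl2 had 0.593, 0.572 and 0.532 RPKM at 24 h, against 2.87, 2.86 and 2.9 RPKM at 0 h (log2 fold change -2.34 with an SE of 0.137, adjusted p = 1.03e-07). The death-promoting Bmf had 10, 8.62 and 12.5 RPKM at 24 h, against 1.44, 1.31 and 1.53 RPKM at 0 h (log2 fold change 2.84). Bcl2l11 (BIM) had 15.4, 12.9 and 15.1 RPKM at 24 h, against 7.69, 7.8 and 7.91 RPKM at 0 h (log2 fold change 0.89). Not all survival members fell, since Bcl2a1b had 64.3, 56.1 and 62.1 RPKM at 24 h, against 15, 16.7 and 13.3 RPKM at 0 h (log2 fold change 2.02), a gene with near-identical copies. Of 17 p53 targets 7 rose and 8 fell. Sesn1, an inhibitor of mTORC1, had 65, 65.9 and 72.7 RPKM at 24 h, against 15.7, 18.2 and 17.2 RPKM at 0 h (log2 fold change 1.99). Plk2 had 12.7, 10.8 and 11.5 RPKM at 24 h, against 54.1, 54.4 and 52.6 RPKM at 0 h (log2 fold change -2.21).

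Clock genes moved in both directions, and the hour of harvest is not given in the sources used here. Of 18 tested genes 8 rose and 5 fell. Dbp, an output gene that CLOCK and BMAL1 drive, had 13.9, 16.6 and 20.5 RPKM at 24 h, against 3.03, 3.8 and 3.23 RPKM at 0 h (log2 fold change 2.33 with an SE of 0.132, adjusted p = 9.95e-08). Per3 had 2.49, 2.88 and 3.31 RPKM at 24 h, against 0.622, 0.594 and 0.822 RPKM at 0 h (log2 fold change 2.09 with an SE of 0.198, adjusted p = 4.26e-06). Nr1d1, which represses Bmal1, had 4.36, 4.64 and 4.68 RPKM at 24 h, against 1.43, 1.69 and 1.39 RPKM at 0 h (log2 fold change 1.60). Nfil3 and Cry1 were lower. Nfil3, which competes with DBP, had 3.77, 3.22 and 4.22 RPKM at 24 h, against 10, 14 and 13.8 RPKM at 0 h (log2 fold change -1.74). The repressor Cry1 had 1.41, 1.33 and 1.64 RPKM at 24 h, against 4.31, 4.76 and 4.65 RPKM at 0 h (log2 fold change -1.65). Among glucocorticoid-responsive genes 3 of 13 rose and 7 fell, with Fkbp5 at 1.19, 1.54 and 1.09 RPKM at 24 h, against 4.12, 4.25 and 4.48 RPKM at 0 h (log2 fold change -1.76) and Tsc22d3 (GILZ) at 17.2, 19.5 and 21.6 RPKM at 24 h, against 8.63, 10.6 and 8.79 RPKM at 0 h (log2 fold change 1.06).

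Some abundant genes stayed close to their level at 0 h. Tnfrsf1a, the main receptor of TNF, had 60.7, 61.5 and 59.9 RPKM at 24 h, against 58.5, 60.8 and 61.7 RPKM at 0 h (log2 fold change 0.01, 95% interval -0.09 to 0.10). The exchange factor Vav1 had 56.9, 58.2 and 57.5 RPKM at 24 h, against 58.4, 58.6 and 57 RPKM at 0 h (-0.01, -0.11 to 0.09). The glycolytic isomerase Gpi1 had 74.9, 76.1 and 70.7 RPKM at 24 h, against 73.7, 76.4 and 71.9 RPKM at 0 h (0.00, -0.10 to 0.10). Spi1, which encodes the macrophage factor PU.1, had 121, 127 and 133 RPKM at 24 h, against 119, 118 and 119 RPKM at 0 h, and its difference did not pass the test (log2 fold change 0.10 with an SE of 0.0435, adjusted p = 0.0773). Dusp10, which encodes MKP5, was not abundant, with 0.692, 0.573 and 0.582 RPKM at 24 h, against 0.732, 0.812 and 0.782 RPKM at 0 h. Its groups did not overlap, but the test did not call it (log2 fold change -0.33 with an SE of 0.26, adjusted p = 0.303). The same test on only the 6 WT libraries did not call it either (adjusted p = 0.153). With so wide an SE, the missing call does not show that Dusp10 was stable. With upper-quartile scaling Spi1 and Tnfrsf1a were called higher, at adjusted p = 0.00232 and 0.0299.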

How the data were processed

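RNA sequencing libraries of 3 groups of 3 were used, and the comparison rests on the 6 WT libraries. STAR and the build GRCm39 are named in the submitters' processing notes. The sources used here do not give the version of STAR, the annotation, how reads were counted or whether strand was used, so genes with near-identical copies or overlaps are uncertain. Per the file headers, each file holds log2 normalized counts of 56775 genes with a TMM factor. The log2 values that the authors deposited equal log2 of (reads + 0.5), divided by exon length and by the TMM-scaled library size: exon lengths of GENCODE M21 turned them back into whole reads, to within 0.004 reads, for 93.5% of 19948 testable genes. RPKM are these values without the 0.5 reads, and recovered reads serve for depth, the filter and genes with few reads. The 13 mitochondrially encoded mRNAs, listed at 0 reads in every library, were not analysed here.

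The test covered 14777 genes: those that reached 10 reads (at median depth) in 3 or more libraries and 15 reads over all, of which 223 had no reads in at least 1 library. A gene that passed only through the libraries of 1 WT group could not be called higher in the other. limma 3.58.1 (R 4.3.3, statmod 1.5.0) fitted 1 mean per group over all 9 libraries, with the trend and robust options; the MKP5 -/- libraries add to the estimate of spread. Tests were two-sided, with Benjamini-Hochberg adjustment over all tested genes and a threshold of 0.05. Fold changes are on the scale with 0.5 reads added, so changes of genes near 0 reads are understated. For genes with 0 to 3 reads in a group, the text gives the read ratio and its 95% exact interval, or, against 0 reads, a bound computed with 3 reads for that group; both cover counting error only. Depth was 11139793 to 19875805 reads.

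The groups compared, the 61 gene lists, the 14 marker lists and the rule for named genes were chosen with earlier results of these data known, and genes can be in several lists. Of 1294 list genes 1292 were found, 24 through an older symbol. Named are the 15 largest changes per direction among genes with at least 20 CPM, the 10 largest gains and losses of transcript share, up to 4 list members per direction with the smallest p, the 10 genes with at least 50 CPM closest to no change, Dusp10 and markers with at least 5 CPM. Genes outside this rule that are singled out (Chac1, Mcm3, and the markers with near 0 reads) were chosen after their values were seen. Motifs were searched in RefSeq windows of build GRCm38.p6, whose coordinates are not those of the deposited data. The model was also run on simulated data, with few changed genes and the same spread set for every gene. That setting differs from these data, so it does not show how reliable the calls here are. Alternatives were the 6 WT libraries alone, a replicate block, other filters, 2 reads added, upper-quartile and relative log expression scaling, no trend, each WT library left out, and a threshold of 0.01. Python 3.11.15 with numpy 2.4.6, pandas 2.3.3, scipy 1.17.1 and matplotlib 3.10.9 made the tables and figures.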

Additional observations from a re-analysis of the deposited data

How the results depend on the processing

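The count of 8192 called genes, 4051 higher and 4141 lower at 24 h, stayed within 1.5 times under all 14 alternative fits and at the threshold of 0.01. That threshold gave the lowest counts, 3153 higher and 3395 lower. Leaving out each WT library in turn gave 7471 to 7703 calls, 3610 to 3830 higher and 3736 to 3910 lower. The split moved most with upper-quartile scaling, which gave 4888 higher and 3574 lower and moved all log2 fold changes up by 0.09; relative log expression scaling gave 4021 higher and 4256 lower. Same-numbered 24 h and 0 h libraries showed no shared deviation from their group means (correlations of -0.02, -0.10 and -0.06). Such correlations cannot tell whether the replicate numbers mark shared mice or cultures, which the labels do not give. With the replicate block 4094 genes were higher and 4142 lower. Of 424 called named genes 413 kept their call under every alternative and 11 lost it under at least 1 (Acadl, Acvrl1, Ftl1, Hspb1, Ighm, Itga8, Itgb3, Ndufv1, Rpl8, Tk1 and Tln1); none reversed its direction among the called. Of 84 list counts above 4 members, 7 moved by over 1.5 times under at least 1 alternative: chemokines higher (3 with the stricter filter), cytoskeleton higher (5 with the stricter filter), oxidative phosphorylation lower (6 with upper-quartile scaling), ribosomal proteins higher (26 with upper-quartile scaling), interferon regulators higher (9 at the threshold of 0.01), and autophagy and integrins lower (as few as 4 and 2). The causes were not tested. Of the lowest quintile of genes by mean level 32% were called, against 74.9% of the highest quintile; the part of depth in this was not tested.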

Other observations

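Histone genes rose in 6 of 13 tested cases and fell in 1. The replacement variant H3f3b had 117, 118 and 109 RPKM at 24 h, against 183, 213 and 192 RPKM at 0 h (log2 fold change -0.77), while H3f3a, which encodes the same protein, had 115, 108 and 120 RPKM at 24 h, against 74.4, 84.3 and 76.5 RPKM at 0 h (0.54). H2bc4 had 26.7, 27.3 and 27.9 RPKM at 24 h, against 7.62, 10.4 and 8.89 RPKM at 0 h (1.62). Histone genes have near-identical copies, so their counts are uncertain.

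MAP kinase phosphatases fell in 6 of 12 tested cases and rose in 1, where 55.4% of all tested genes were called in either direction. Dusp4 had 3.93, 2.75 and 3.51 RPKM at 24 h, against 28.2, 23.2 and 25.6 RPKM at 0 h (log2 fold change -2.93), and Dusp6, which acts on ERK, had 11.9, 13.1 and 9.91 RPKM at 24 h, against 41.7, 46.9 and 42.6 RPKM at 0 h (-1.92). Dusp22 was the member that rose (0.41). The groups did not overlap for these 3 genes. Markers of endothelial cells summed to 1.54 to 1.83 RPKM at 24 h and 6.24 to 6.40 RPKM at 0 h, with 3 of 4 tested members lower; Kdr, a receptor of VEGF, had 0.0813, 0.0712 and 0.0932 RPKM at 24 h, against 1.28, 1.11 and 1.43 RPKM at 0 h.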
